A study of Mus musculus with 10 samples.

Results

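The phagocyte NADPH oxidase was followed through 6 of its subunit genes, Cybb, Cyba, Ncf1, Ncf4, Rac1 and Rac2, in mouse leukemic cells treated with 4 inhibitors of chromatin regulators. The genes were picked by symbol from the 24015 genes of a read count table, and all 6 were among the 12971 genes with enough reads to be tested. The enzyme has further subunits, which are not analysed here. The cells were MAF9, a line made by transducing C57BL/6 mouse bone marrow cells with the MLL-AF9 fusion oncogene, so every group, DMSO included, carried the fusion. They grew in IMDM with 15% serum and 10 ng/ml interleukin-3 for 4 days with DMSO, with MM-401, which blocks the binding of MLL1 to WDR5, with EPZ5676, an inhibitor of the methyltransferase DOT1L, with MI-2-2, an inhibitor of MENIN, or with iBET. Each inhibitor was given at its own half-maximal inhibitory dose, and 2 libraries were sequenced per condition, all labelled as this line. The design asks how the 4 inhibitors differ from DMSO and from each other.

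The NADPH oxidase of neutrophils and macrophages passes electrons from NADPH across a membrane to oxygen, and the superoxide formed is used against microbes. Its membrane part is a heterodimer of the catalytic subunit, encoded by Cybb, and a smaller partner, encoded by Cyba, which stabilises it and holds the docking site for the cytosolic subunits. Ncf1 encodes the organizer that binds this site when the cell is stimulated, and Ncf4 encodes a cytosolic subunit that binds a phosphoinositide of the phagosome membrane. A GTP-bound Rac protein completes the enzyme, Rac2 being largely confined to blood cells and Rac1 being present in most cell types. Inherited loss of several of these subunits causes chronic granulomatous disease, and the genes of the membrane core and the organizer are known to be induced as myeloid cells mature.

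The promoters of 3 of the 6 genes were listed in the RefSeq table of build GRCm38.p6, and the stretch around each annotated start is shown. Those of Ncf4, Rac1 and Rac2 were not listed there. Each run covers the 70 bases before the start and the first 30 bases of the transcript, 5′ to 3′ on the strand of the gene, with matches to the searched motifs in capitals.
Cybb, chrX:9469295-9469394, minus strand: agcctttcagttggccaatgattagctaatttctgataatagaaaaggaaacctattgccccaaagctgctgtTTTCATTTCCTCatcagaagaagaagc
Cyba, chr8:122432911-122433010, minus strand: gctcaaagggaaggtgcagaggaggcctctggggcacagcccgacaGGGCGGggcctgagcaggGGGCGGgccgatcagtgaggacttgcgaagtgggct
Ncf1, chr5:134229596-134229695, minus strand: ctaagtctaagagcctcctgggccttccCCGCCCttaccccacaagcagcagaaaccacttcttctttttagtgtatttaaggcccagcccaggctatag

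The motifs were searched on both strands in the 250 bases before the start and the first 50 bases of the transcript. The Cybb window, with 35.3% G and C, held the composite of an ETS and an IRF site, GGAA followed after any pair of bases by GAAA, on the opposite strand at bases 4 to 13 of the transcript, and the PU.1-type ETS core GAGGAA overlapping it at bases 10 to 15. The composite occurred in 2.72% of the 32851 listed promoters and the ETS core in 28.3%. PU.1 and IRF family factors are known to act on the Cybb promoter of myeloid cells. The Cyba window, with 60.7% G and C, held 2 GC boxes, CCGCCC, at 24 to 19 and at 6 to 1 bases before the start, and the Ncf1 window, with 54.0% G and C, held 1 GC box at 42 to 37 bases before it. A GC box was found in 35.7% of all promoters. The C/EBP palindrome TTGCNNAA, the E-box CACGTG and the TATA box TATAAA, present in 10.8%, 7.15% and 13.6% of promoters, were in none of the 3 windows. These are matches of letters, not tests of binding.

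Depth ranged from 20394762 to 29473127 reads per library. The library labelled DMSO replicate 2 stood apart from the others. It had 4.76 CPM (counts per 1000000 reads of the library) of the X-inactivation transcript Xist and 3630 reads of 4 Y-linked genes, where the other 9 libraries had 928 to 3051 CPM of Xist and 0 to 2 of those reads. These values go against its label as the same cell line as the other 9, so the effect of an inhibitor and that of a different origin cannot be told apart in comparisons with this library. The 2 DMSO libraries were more than 2-fold apart in 16.4% of 11447 genes, against 1.47% to 4.3% within the other conditions. All 6 subunit genes were lower in DMSO replicate 2 than in replicate 1, so values without 1 of the DMSO libraries are given beside the comparisons with DMSO that they bear on. All 11 myeloid progenitor markers, among them Kit, Mpo and Elane, had at least 1 CPM on average, although Cd34 reached only 0.1 to 2.4 CPM per library. The summed markers of T cells, B cells, erythroid cells, megakaryocytes, mast cells and stroma stayed at or below 20.9 CPM in every library. The CPM of Xist and of marker genes are scaled by library totals, and those of the subunit genes and of the other listed genes by edgeR's TMM factors as well.

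**Figure D1:**
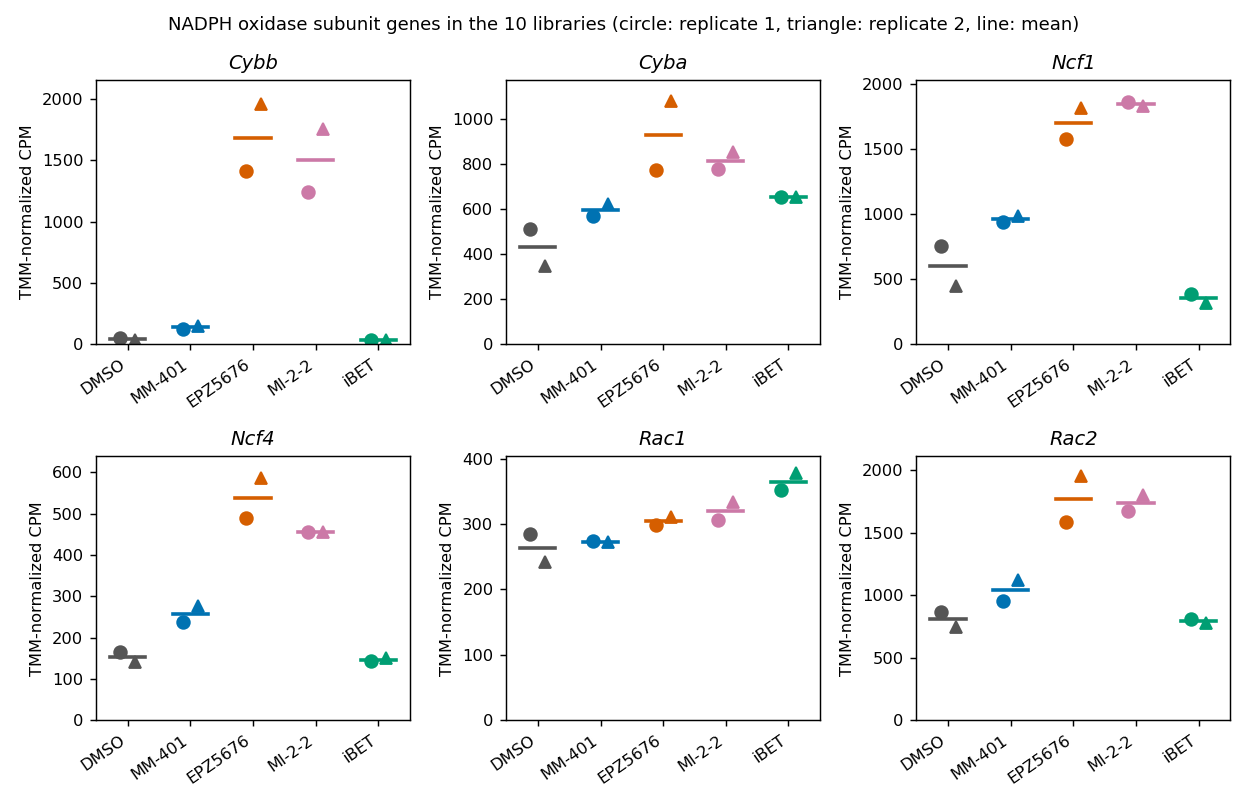
TMM-normalized CPM (vertical axes, from 0) of the 6 subunit genes in the 10 libraries, 2 per condition; circles are replicate 1, triangles replicate 2 and lines the mean. Both EPZ5676 and both MI-2-2 libraries lie above all DMSO, MM-401 and iBET libraries for every gene except Rac1, which was highest with iBET.

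The catalytic subunit gene Cybb moved furthest. It stood at 48.8 and 30.7 CPM in the 2 DMSO libraries and at 1411 and 1959 CPM in the EPZ5676 libraries. With MI-2-2 it stood at 1245 and 1757 CPM. The libraries of both treatments were far above the DMSO libraries, with no overlap. Cybb rose 42.3-fold with EPZ5676 (log2 fold change 5.40, SE 0.33, adjusted p = 0.000212) and 37.7-fold with MI-2-2 (log2 fold change 5.24, SE 0.33, adjusted p = 0.000231). Here and below, adjusted p-values are those of the edgeR quasi-likelihood test, adjusted over all genes tested by the Benjamini-Hochberg method. Without DMSO replicate 1 the log2 fold changes were 5.78 and 5.62, and without DMSO replicate 2 they were 5.13 and 4.98, called in each case.

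Cyba, the partner of Cybb in the membrane, moved in the same direction by a smaller amount. It was at 512 and 347 CPM with DMSO, at 774 and 1083 CPM with EPZ5676 and at 778 and 854 CPM with MI-2-2, again without overlap. It rose 2.16-fold with EPZ5676 (log2 fold change 1.11, SE 0.22, adjusted p = 0.00697) and 1.90-fold with MI-2-2 (0.93, SE 0.22, adjusted p = 0.0128). The call for MI-2-2 was lost without MI-2-2 replicate 2 (adjusted p = 0.0694). The rise depended in size on the DMSO library, with log2 fold changes of 1.42 and 1.24 without DMSO replicate 1 and of 0.88 and 0.71 without DMSO replicate 2.

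Of the cytosolic subunits, the organizer gene Ncf1 was at 757 and 445 CPM with DMSO, at 1578 and 1821 CPM with EPZ5676 and at 1862 and 1835 CPM with MI-2-2. It rose 2.83-fold with EPZ5676 (log2 fold change 1.50, SE 0.25, adjusted p = 0.00316) and 3.07-fold with MI-2-2 (1.62, SE 0.25, adjusted p = 0.00224). Ncf4 was at 166 and 141 CPM with DMSO, at 489 and 586 CPM with EPZ5676 and at 454 and 455 CPM with MI-2-2. Its 2 DMSO libraries were close to each other, and it had the smallest standard error of the 5 genes that rose. Ncf4 rose 3.51-fold with EPZ5676 (1.81, SE 0.15, adjusted p = 0.000418) and 2.97-fold with MI-2-2 (1.57, SE 0.15, adjusted p = 0.000597). For Ncf1 the choice of DMSO library mattered more than for Ncf4. The EPZ5676 log2 fold change of Ncf1 was 1.93 without DMSO replicate 1 and 1.19 without replicate 2, against 1.94 and 1.72 for Ncf4. With MI-2-2 these values were 2.06 and 1.32 for Ncf1 and 1.70 and 1.49 for Ncf4, and all of them passed.

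The Rac genes parted. Rac2, the blood cell form, was at 868 and 748 CPM with DMSO, at 1583 and 1953 CPM with EPZ5676 and at 1674 and 1803 CPM with MI-2-2. It rose 2.19-fold and 2.15-fold (log2 fold changes 1.13 and 1.11, SE 0.17 in each, adjusted p = 0.00222 in each), and passed without either DMSO library, at log2 fold changes of 1.04 to 1.25. Rac1, the widespread form, was at 285 and 242 CPM with DMSO, at 299 and 311 CPM with EPZ5676 and at 306 and 334 CPM with MI-2-2. On this scale both treatments lay slightly above DMSO, and neither difference passed the test (log2 fold change 0.21, SE 0.12, adjusted p = 0.205 with EPZ5676, and 0.28, SE 0.12, adjusted p = 0.102 with MI-2-2). Without DMSO replicate 1 the Rac1 differences did pass, at log2 fold changes of 0.34 (adjusted p = 0.0458) and 0.41 (adjusted p = 0.022), and without DMSO replicate 2 they did not, at 0.12 and 0.20.

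Thus 5 of the 6 subunit genes rose with EPZ5676, where 18.7% of all tested genes were called higher, and the same 5 rose with MI-2-2, where 20.2% were. The median log2 fold change of the 6 genes was 1.31 with EPZ5676 and 1.34 with MI-2-2, against -0.06 and -0.05 over all tested genes. Scaling by library totals in place of TMM shifted the median of all genes to -0.23 and -0.21 in these comparisons, and the medians of the subunit genes to 1.13 and 1.18. Both comparisons use the same DMSO libraries. In a model of only the 2 conditions compared, Cybb and Ncf4 passed in each case and Cyba, Ncf1 and Rac2 did not. Their log2 fold changes there were 1.12, 1.50 and 1.13 with EPZ5676 and 0.93, 1.62 and 1.11 with MI-2-2, with adjusted p from 0.0533 to 0.0848. Far fewer of all genes were called in this model as well, so the loss is not specific to Cyba, Ncf1 and Rac2.

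Markers of mature myeloid cells moved with these rises. The summed level of 8 neutrophil markers was 266 to 942 CPM with DMSO, 20150 to 23740 CPM with EPZ5676 and 18900 to 19500 CPM with MI-2-2. The sum of 8 macrophage markers was 80.4 to 107 CPM with DMSO, 421 to 506 CPM with EPZ5676 and 431 to 797 CPM with MI-2-2. The sum of the 11 progenitor markers was 9809 to 12220 CPM with DMSO, 5522 to 6164 CPM with EPZ5676 and 5808 to 5865 CPM with MI-2-2. Its members moved in both directions. Elane fell from 4542 and 4100 CPM to 1384 and 1104 CPM with EPZ5676 and 1007 and 598 CPM with MI-2-2. Itgam rose from 521 and 285 CPM to 1807 and 2289 CPM and to 2084 and 2535 CPM. Mpo, Ctsg, Cd34 and Meis1 were also lower with both inhibitors, and Ptprc, Spi1 and Fcgr3 higher. Kit overlapped DMSO with both, and Hoxa9 with MI-2-2. The part of such a change in cell composition or state in the subunit results was not tested, and in bulk RNA more cells of a type and more RNA per cell cannot be told apart.

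**Figure D2:**
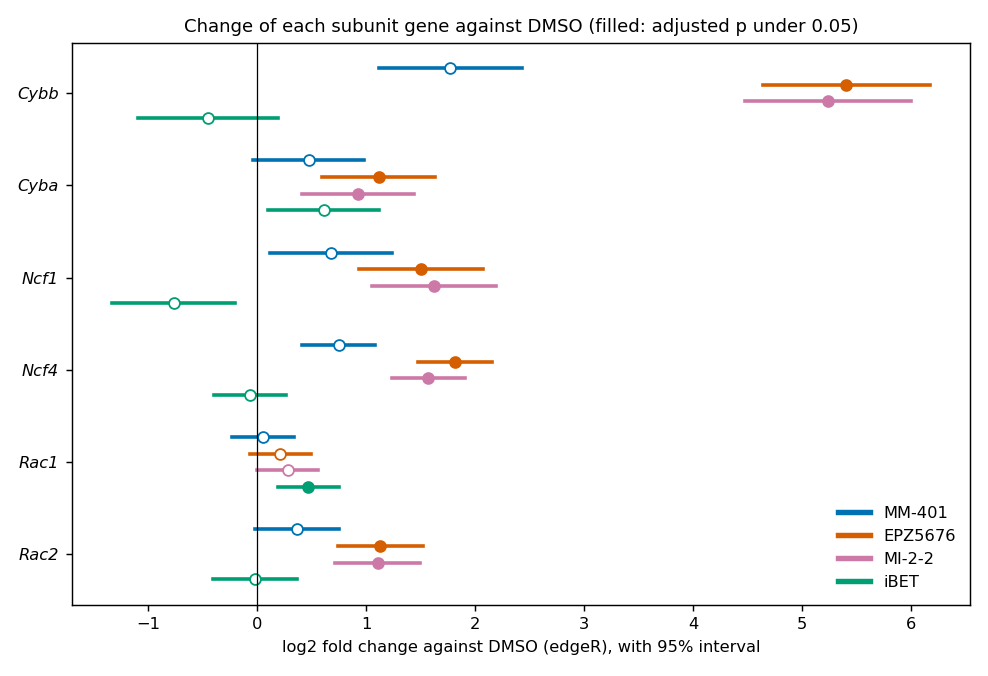
Log2 fold change of each subunit gene against DMSO (horizontal axis) for the 4 inhibitors, with bars for the 95% interval and filled points where the adjusted p was under 0.05. Cybb lies at 5.40 and 5.24 with EPZ5676 and MI-2-2, the other filled points of these inhibitors lie between 0.93 and 1.81, no MM-401 point is filled, and the only filled iBET point is that of Rac1.

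MM-401 was followed by higher values of most subunit genes that did not pass the test. Cybb was at 121 and 151 CPM, 3.41-fold above DMSO (log2 fold change 1.77, SE 0.28, adjusted p = 0.223). Ncf1 was at 937 and 987 CPM (0.68, SE 0.24, adjusted p = 0.362), and Ncf4 at 238 and 275 CPM (0.75, SE 0.14, adjusted p = 0.259). Both MM-401 libraries exceeded both DMSO libraries for these genes. The same held for Cyba, at 568 and 624 CPM (0.47, SE 0.22, adjusted p = 0.486), and for Rac2, at 956 and 1126 CPM (0.37, SE 0.17, adjusted p = 0.475). Rac1, at 274 and 272 CPM, lay between the DMSO libraries (0.05, SE 0.12, adjusted p = 0.914). The MM-401 libraries were thus wholly above DMSO for 5 of 6 subunit genes, an arrangement that 19.5% of all tested genes showed. edgeR called 0 subunit genes and 0% of all tested genes in this comparison, with 3 of the 6 subunit genes and 1450 of all genes at an unadjusted p under 0.05. DESeq2 called Cybb (adjusted p = 6.66e-07) and Ncf4 (adjusted p = 0.000354). Without DMSO replicate 1, edgeR called Cybb (log2 fold change 2.15, adjusted p = 0.0061), Ncf1 (1.11, adjusted p = 0.00907) and Ncf4 (0.87, adjusted p = 0.015). Without DMSO replicate 2 it called none of them, at 1.46, 0.33 and 0.61. The neutrophil marker sum was 1302 to 1520 CPM with MM-401, above the DMSO range, and its part was not tested.

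With iBET only Rac1 passed the test, although Ncf1 and Cyba lay further from DMSO than Rac1 did. Rac1 was at 351 and 378 CPM with iBET, above every other library, and rose 1.38-fold against DMSO (log2 fold change 0.47, SE 0.12, adjusted p = 0.043). This call was lost without DMSO replicate 2 (0.35, adjusted p = 0.063) and under 11 further alternatives, and kept its direction in all of them. Cybb was at 29.2 and 28.9 CPM, under both DMSO libraries (-0.45, SE 0.28, adjusted p = 0.298). Ncf1 was also lower, at 386 and 319 CPM (-0.77, SE 0.24, adjusted p = 0.0723), and passed only without DMSO replicate 2 among the settings that left out a DMSO library (-1.10, adjusted p = 0.00574) and by DESeq2 (adjusted p = 0.0115). Cyba was higher, at 655 and 656 CPM (0.61, SE 0.22, adjusted p = 0.103), and passed without DMSO replicate 1 (0.92, adjusted p = 0.0158) and by DESeq2 (adjusted p = 0.0466). Ncf4, at 142 and 150 CPM, and Rac2, at 813 and 778 CPM, lay between the DMSO libraries (log2 fold changes -0.07 and -0.02, adjusted p = 0.788 and 0.948). With iBET 1 of 6 subunit genes was therefore called, where 6.38% of all tested genes were called higher and 7.54% lower. The iBET and DMSO libraries did not overlap for 4 of the 6 genes, against 54.6% of all genes. The neutrophil marker sum was 119 to 254 CPM with iBET, below the DMSO range, and the progenitor sum 5736 to 6330 CPM. Within the progenitor sum, Mpo, Elane, Kit, Ptprc and Fcgr3 lay below both DMSO libraries, and Ctsg and Hoxa9 above them. Itgam, Spi1, Cd34 and Meis1 overlapped DMSO.

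Compared with each other, EPZ5676 and MI-2-2 gave no called difference in a subunit gene, where 0.0154% of all genes were called. For Cybb the log2 difference of EPZ5676 minus MI-2-2 was 0.17 with a 95% interval from -0.47 to 0.80, and for Cyba it was 0.19 with an interval from -0.32 to 0.70. For Ncf1 it was -0.12 (-0.68 to 0.44), for Ncf4 0.24 (-0.09 to 0.57), for Rac1 -0.07 (-0.35 to 0.21) and for Rac2 0.02 (-0.36 to 0.41). The interval of Cybb was the widest, so a difference of up to 0.80 in Cybb remains possible.

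MM-401 stood below EPZ5676 for 4 subunit genes, where 16.7% of all genes were called lower. The log2 differences were -3.63 for Cybb (adjusted p = 0.000612), -1.07 for Ncf4 (adjusted p = 0.00218), -0.76 for Rac2 (adjusted p = 0.0115) and -0.82 for Ncf1 (adjusted p = 0.0342). The last of these was lost under 9 alternatives. Cyba missed the threshold at -0.64 (adjusted p = 0.0578). The same 4 genes were lower with MM-401 than with MI-2-2, where 18% of all genes were called lower, by log2 differences of -3.47 for Cybb (adjusted p = 0.000804), -0.82 for Ncf4 (adjusted p = 0.00477), -0.74 for Rac2 (adjusted p = 0.012) and -0.94 for Ncf1 (adjusted p = 0.0198). This Ncf1 call was lost without any of the 4 libraries compared, and the Rac2 calls without MM-401 replicate 1 and without replicate 2 of the other inhibitor. Against iBET, MM-401 was higher for 3 subunit genes, where 5.96% of all genes were called higher. Those were Cybb at a log2 difference of 2.22 (adjusted p = 0.00511), Ncf1 at 1.45 (adjusted p = 0.0119) and Ncf4 at 0.81 (adjusted p = 0.0132). The Cybb call against iBET was lost without either iBET library, and those of Ncf1 and Ncf4 without any of the 4 libraries compared. None of these 3 log2 differences uses a DMSO library. Their p-values come from 1 model of all 10 libraries, so the spread of the DMSO pair enters them.

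iBET and the DOT1L and MENIN inhibitors lay at opposite ends. Cybb was lower with iBET than with EPZ5676 (log2 difference -5.86, adjusted p = 6.9e-05) and lower than with MI-2-2 (-5.69, adjusted p = 8.59e-05). Ncf1 was lower too (-2.27, adjusted p = 0.000611, and -2.39, adjusted p = 0.000602). Ncf4 (-1.88 and -1.64) and Rac2 (-1.15 and -1.13) followed, with adjusted p from 0.00017 to 0.00214. Cyba did not pass against EPZ5676 (-0.50, adjusted p = 0.108), and Rac1 was the only subunit gene with its higher mean under iBET. Thus 4 of 6 subunit genes were called lower in each of these comparisons, where 19.1% of all genes were lower against EPZ5676 and 19.7% against MI-2-2.

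The order of the conditions differed between subunit genes. For Cybb, Ncf4 and Rac2 the mean level fell from EPZ5676 through MI-2-2, MM-401 and DMSO to iBET, and for Ncf1 the order was the same with EPZ5676 and MI-2-2 exchanged. Between neighbours in these orders, only the step from MI-2-2 or EPZ5676 to MM-401 passed the test. For Cyba iBET lay between MI-2-2 and MM-401, and DMSO was lowest. For Rac1 the order ran from iBET through MI-2-2, EPZ5676 and MM-401 to DMSO, and none of its neighbours differed by the test.

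Levels can be set side by side between genes only per length of transcript, given here as RPKM, reads per kilobase of exon per 1000000 reads of the library, on GENCODE M21 gene models, which matched 94.6% of the gene symbols. Cyba was the most abundant subunit transcript in every condition, at 611 RPKM with DMSO and 1163 RPKM with EPZ5676. Cybb was the least abundant with DMSO, MM-401 and iBET, at 8.87, 29.6 and 6.31 RPKM. Its place among 16590 ranked genes went from 6578 with DMSO to 114 with EPZ5676 and 124 with MI-2-2, where it reached 330 and 299 RPKM. With these inhibitors Rac1 became the lowest, at 67.7 and 71.9 RPKM, close to its 66.0 RPKM with DMSO. The Cybb and Ncf4 levels, 8.87 and 110 RPKM with DMSO, came to 330 and 343 RPKM with EPZ5676. Ncf1 and Rac2 were at 221 and 281 RPKM with DMSO and at 551 and 543 RPKM with EPZ5676.

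**Figure D3:**
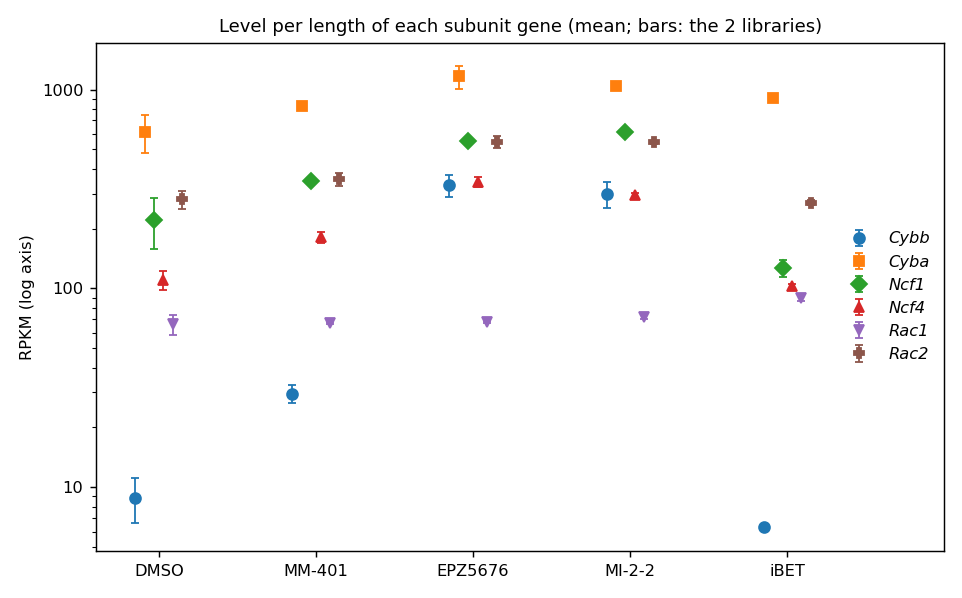
RPKM on a log axis of the 6 subunit genes in each condition, as the mean with bars from the lower to the higher of the 2 libraries. Cybb moves from the bottom of the set with DMSO (8.87 RPKM), MM-401 and iBET to the range of the other subunit genes with EPZ5676 (330 RPKM) and MI-2-2, and Cyba is highest throughout.

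The reads of 2 subunit genes compared within a library do not depend on its scaling. The membrane partners Cybb and Cyba gave 0.0954 and 0.0884 Cybb reads per Cyba read with DMSO, 0.213 and 0.241 with MM-401, and 0.0445 and 0.0441 with iBET. With EPZ5676 the ratio was 1.82 and 1.81, and with MI-2-2 1.60 and 2.06. EPZ5676 and MI-2-2 overlapped in this ratio, and no other conditions did. The ratio of Rac2 to Rac1 reads was 3.04 and 3.09 with DMSO, 3.49 and 4.14 with MM-401, 5.30 and 6.28 with EPZ5676, 5.48 and 5.41 with MI-2-2, and 2.32 and 2.06 with iBET. The DMSO libraries, which differed in the CPM of each gene, were close to each other in both ratios, with SDs of 0.08 and 0.02 on the log2 scale. No test was made of these ratios.

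**Figure D4:**
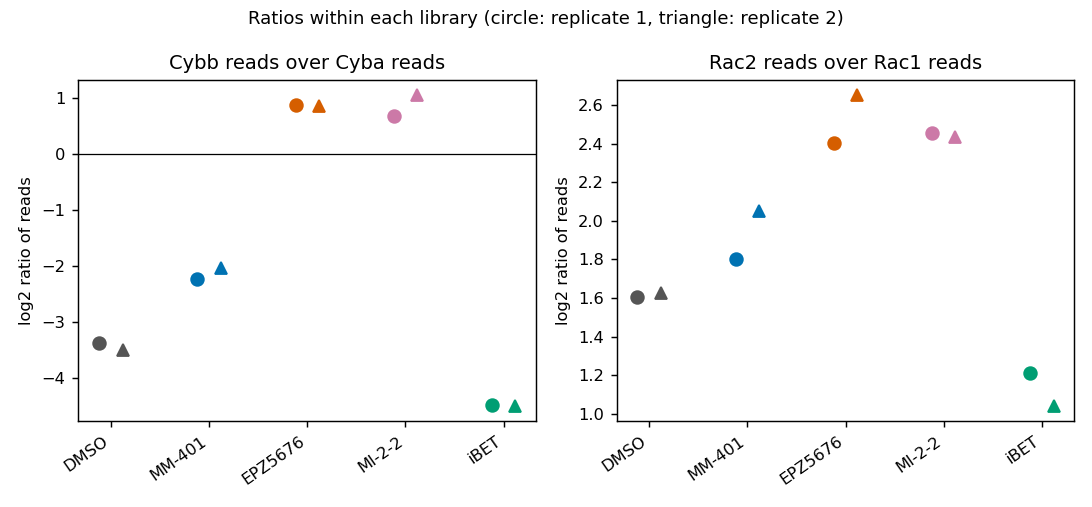
Log2 ratio of Cybb to Cyba reads (left) and of Rac2 to Rac1 reads (right) in each library; circles are replicate 1 and triangles replicate 2. The mean Cybb to Cyba ratio lies at -3.45 with DMSO, -4.50 with iBET, -2.14 with MM-401 and 0.86 with both EPZ5676 and MI-2-2.

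Some reads cannot be placed with certainty. In GENCODE M21 the exons of Rac1 share 2309 bases, 54.8% of their length, with Daglb on the opposite strand, and those of Ncf1 share 361 bases, 12.5%, with Gtf2ird2. Whether counting used the strand is not given in the sources used here, so without strand the reads there could belong to either gene. Daglb had 896 and 772 reads with DMSO and 1286 and 1498 reads with iBET, where Rac1 had 7324 and 5044 and then 7948 and 9873 reads. Gtf2ird2 had at most 1408 reads in a library, and Ncf1 at least 8349. The transcripts of Rac1 and Rac2 shared no stretch of 50 bases, nor did any other pair of the 6 genes.

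The machinery around the enzyme was followed in a list of 46 genes for assembly and activation, which holds receptors, Rac exchange factors, kinases and chaperones of the oxidase. All 46 were tested. This list and the second one below were chosen with earlier results of these data known, so their shares are a description only. With EPZ5676 25 rose (54.3% of the list, against 18.7% of all genes) and 1 fell (2.17%, against 19.4% of all genes). With MI-2-2 23 rose (50%, against 20.2%) and none fell, against 21.2% of all genes. The chemoattractant receptors that trigger the oxidase led the list. Fpr2 rose from 0.90 and 0.10 CPM with DMSO to 28.1 and 65.5 CPM with EPZ5676 (log2 fold change 6.47, SE 0.76, adjusted p = 0.001) and to 81.3 and 159 CPM with MI-2-2 (7.83, SE 0.78). Fpr1, its paralog, rose from 0.234 and 0 CPM to 7.81 and 13.9 CPM (6.37, SE 0.83) and to 23.0 and 43.1 CPM (7.97, SE 0.85). The DMSO levels of both receptors rest on few reads, so the sizes of these rises are uncertain. Without DMSO replicate 2 the log2 fold changes were 5.72 and 7.09 for Fpr2 and 5.53 and 7.15 for Fpr1. Without DMSO replicate 1 those of Fpr2 were 8.86 and 10.22, and for Fpr1 the remaining DMSO library had no reads. C5ar1, the receptor of complement C5a, rose from 6.23 and 3.07 CPM to 190 and 285 CPM (5.66, SE 0.60) and to 191 and 251 CPM (5.56, SE 0.60), with log2 fold changes from 5.18 to 6.28 without 1 DMSO library. The gene that fell with EPZ5676 was Vav2, a Rac exchange factor of many tissues (-1.11, SE 0.27, adjusted p = 0.015), a call lost without either EPZ5676 library. These receptors are themselves genes of mature neutrophils and moved with the neutrophil marker sum given above.

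With iBET 5 genes of the assembly list rose (10.9%, against 6.38% of all genes) and 1 fell (2.17%, against 7.54%). The rises were small, led by Prkcd, a kinase that phosphorylates the organizer subunit (0.80, SE 0.17, adjusted p = 0.0207), Bcr, which has a Rac-inactivating domain (0.73, SE 0.19, adjusted p = 0.0442), and Msn, a linker of membrane and actin (0.72, SE 0.15, adjusted p = 0.0228). Prkcd and Msn were also called higher with EPZ5676 (1.14 and 0.66) and with MI-2-2 (1.17 and 0.76), and Bcr was not. The Rac exchange factor Tiam1 fell from 79.8 and 129 CPM with DMSO to 30.8 and 27.3 CPM with iBET (-1.84, SE 0.21, adjusted p = 0.00384). The Bcr call was lost when any library other than DMSO replicate 1 was left out, those of Prkcd and Msn without either iBET library, that of Msn also without either MM-401 library, and that of Tiam1 without iBET replicate 2 (adjusted p = 0.0501). With MM-401 0 of the 46 genes were called by edgeR and 3 by DESeq2, with 9 at an unadjusted p under 0.05. The medians of the list were 0.52 with EPZ5676, 0.61 with MI-2-2, 0.11 with iBET and 0.20 with MM-401.

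A second list held 34 genes that supply NADPH or handle superoxide and peroxide, of which 33 were tested. With EPZ5676 8 genes were called higher and 7 lower (24.2% and 21.2% of the list, against 18.7% and 19.4% of all genes). These shares are near those of all genes. With MI-2-2 10 were higher and 4 lower (30.3% and 12.1%, against 20.2% and 21.2% of all genes). With iBET 4 were higher and 2 lower (12.1% and 6.06%, against 6.38% and 7.54% of all genes). The antioxidant enzyme gene Nqo1 rose most with both EPZ5676 (2.90, SE 0.85, adjusted p = 0.0295) and MI-2-2 (2.93, SE 0.85, adjusted p = 0.0264), from 11.5 and 1.20 CPM with DMSO. The heme oxygenase gene Hmox1 rose with both (1.55, SE 0.50, adjusted p = 0.0415, and 1.93, SE 0.50, adjusted p = 0.0179). Glrx, which reduces glutathionylated proteins, also rose with both (1.54, SE 0.25, adjusted p = 0.00286, and 1.40, SE 0.25, adjusted p = 0.00386). Gpx3, a glutathione peroxidase, rose with MI-2-2 (1.67, SE 0.57, adjusted p = 0.0463) and was not called with EPZ5676 (1.32, adjusted p = 0.0991). Sod1, the cytosolic superoxide dismutase, fell with both (-1.12, SE 0.19, and -1.21, SE 0.19). With iBET Sod1 was instead called higher (0.71, SE 0.19, adjusted p = 0.045), a call not checked with libraries left out. Prdx3 fell with both as well (-0.79, SE 0.10, adjusted p = 0.0012, and -0.72, SE 0.10, adjusted p = 0.00159). Prdx4 fell with EPZ5676 (-1.34, SE 0.35, adjusted p = 0.0193) and was not called with MI-2-2 (-0.49, adjusted p = 0.277). Prdx3 and Prdx4 encode peroxiredoxins, which reduce peroxides. The Nqo1 and Hmox1 calls were lost without either library of the inhibitor, the Hmox1 call with EPZ5676 and the Gpx3 call also without any other inhibitor library, and the Prdx4 call without DMSO replicate 1 (adjusted p = 0.0509) or either EPZ5676 library. The size of several changes hung on the DMSO library. Without DMSO replicate 1 and without replicate 2, the log2 fold changes were 5.32 and 2.09 for Nqo1 with EPZ5676, 5.35 and 2.13 for Nqo1 with MI-2-2, 2.73 and 0.94 for Hmox1 with EPZ5676, and 3.10 and 1.33 for Hmox1 with MI-2-2. They were 3.18 and 0.98 for Gpx3 with MI-2-2, 1.99 and 1.22 for Glrx with EPZ5676, and -0.66 and -1.77 for Prdx4 with EPZ5676. Those of Sod1 were -1.36 and -0.80 with EPZ5676 and -1.45 and -0.88 with MI-2-2.

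Myeloperoxidase, which turns the peroxide made downstream of the oxidase into hypochlorous acid, fell with 3 inhibitors. Mpo was at 386 and 4817 CPM in the DMSO libraries, at 167 and 367 CPM with EPZ5676 (-3.28, SE 1.04, adjusted p = 0.0398), at 19.6 and 52.0 CPM with MI-2-2 (-6.18, SE 1.20, adjusted p = 0.00563) and at 14.6 and 16.1 CPM with iBET (-7.40, SE 1.27, adjusted p = 0.0114). All libraries of these 3 inhibitors lay under both DMSO libraries, which were themselves far apart. With MM-401 Mpo averaged 1668 CPM and was not called (-0.64, SE 0.96, adjusted p = 0.85). The EPZ5676 call rested on DMSO replicate 2, the library that stood apart, and without it the log2 fold change was -0.51 (adjusted p = 0.52). It was also lost when any inhibitor library was left out, and the iBET call without either iBET library. Without DMSO replicate 2 the log2 fold change of Mpo was -3.40 with MI-2-2 (adjusted p = 0.00447) and -4.65 with iBET (adjusted p = 0.00423). Mpo is also 1 of the 11 progenitor markers. With iBET the genes that rose were led by Gclc, for glutathione synthesis (0.92, SE 0.22, adjusted p = 0.0302), Nfe2l2, the antioxidant response factor (0.79, SE 0.20, adjusted p = 0.0412), and Gpx1 (0.77, SE 0.18, adjusted p = 0.0309), each lost without either iBET library and without either MM-401 library. The Gclc call was also lost without either EPZ5676 library, and the Nfe2l2 call without either DMSO library (adjusted p = 0.0612 and 0.0548). Nfe2l2 was also called higher with EPZ5676 (1.10, SE 0.20, adjusted p = 0.00518) and with MI-2-2 (0.91, SE 0.20, adjusted p = 0.00954). The other gene that fell with iBET was Me1, a cytosolic source of NADPH named after its values were seen, from 3.25 to 0.203 CPM on average (-3.95, SE 0.84, adjusted p = 0.022). With MM-401 0 genes of this list were called by edgeR and 2 had an unadjusted p under 0.05.

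**Figure D5:**
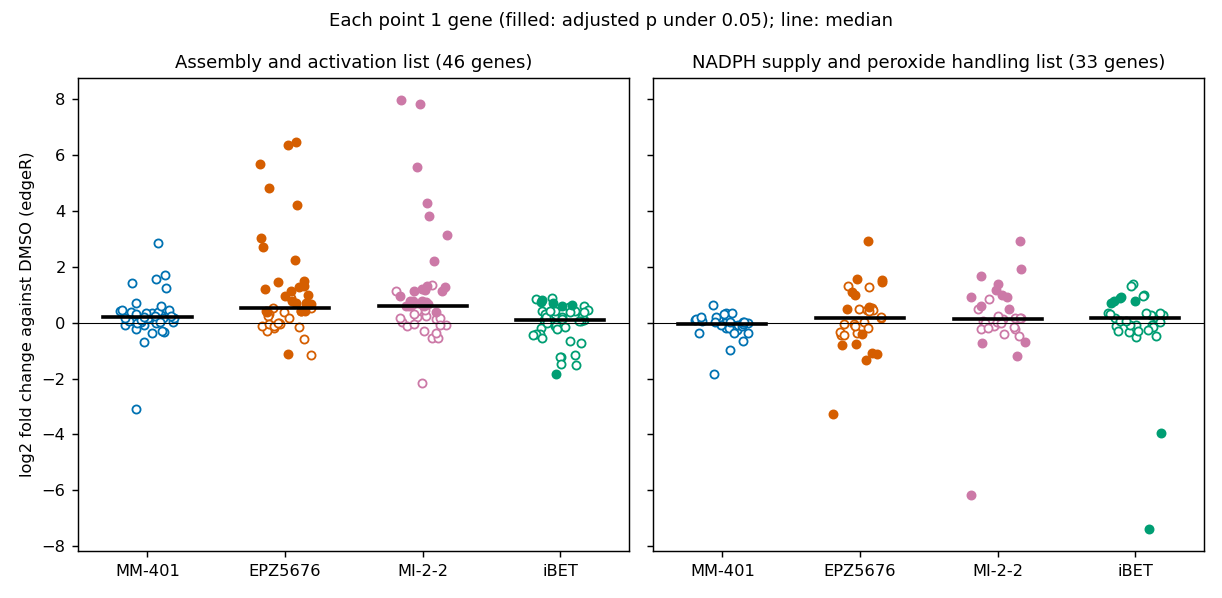
Log2 fold change against DMSO (vertical axis) of each gene in the list for oxidase assembly and activation (left, 46 genes) and in the list for NADPH supply and peroxide handling (right, 33 genes); filled points passed the adjusted threshold and lines are medians. The assembly list has 25 filled points above 0 with EPZ5676 and 23 with MI-2-2, while the supply list has filled points on both sides of 0 for EPZ5676, MI-2-2 and iBET.

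Other NADPH oxidases were barely expressed. Of 10 further genes of the family and its partners, Noxo1, an organizer related to Ncf1, was at 2.13 to 3.60 CPM on average in a condition, and Rac3 at 1.44 to 2.09 CPM, with no called change against DMSO. The catalytic subunit genes Nox1, Nox3, Nox4, Duox1 and Duox2, the partners Duoxa1 and Duoxa2 and the activator Noxa1 had too few reads to be tested.

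Over the 10 libraries, the log2 CPM of Cybb followed that of Ncf4 and of Rac2 most closely among the subunit genes, with a Pearson r of 0.991 in each case. It was 0.953 with Ncf1 and 0.777 with Cyba. Rac1 had no close partner in the set, with r from -0.14 to 0.584 and 0.118 with Rac2. Among 9940 genes with at least 5 CPM, those most like Cybb included Arhgap4 (r = 0.998) and Ltf (0.997). The genes most like Rac2 included Tirap (0.997) and Arrb2 (0.995), and those most like Ncf1 were Olfml2b (0.996), Stfa2l1 (0.995) and Lrg1 (0.995). For Ncf4 they were Gm9733 (0.994), Pstpip1 (0.994) and Cybb itself (0.991), for Cyba Rassf2 (0.981), Zfp738 (0.978) and Rnf130 (0.973), and those for Rac1 included Tmem30a (0.976) and Tesk1 (0.971). These correlations describe the 10 libraries only, which share the division between EPZ5676 and MI-2-2 and the other conditions.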

How the data were processed

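RNA from 10 MAF9 cultures was prepared with RNeasy columns and DNase and sequenced as Illumina TruSeq libraries. The deposited values are raw read counts per gene symbol, made by the authors. The submitters' processing notes name TopHat2, Subread, DESeq and build mm9, with neither versions nor roles. Columns were matched to samples by condition and replicate. The labels call the samples of a condition biological duplicates, and p-values measure only the spread between these libraries.

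Counts were analysed in R 4.3.3 with edgeR 4.0.16: low genes were removed with filterByExpr, libraries were scaled by TMM, and quasi-likelihood tests were taken from 1 model of all 10 libraries (5 residual degrees of freedom) at a Benjamini-Hochberg adjusted p of 0.05. CPM of subunit and listed genes are TMM-normalized, those of markers and Xist are scaled by library totals, and correlations use log2 CPM with a prior count of 2. In counts simulated for EPZ5676 against DMSO over 12768 genes, 89% of 100 genes changed 4-fold and 40% of 100 genes changed 2-fold were called. Of 138 calls, 9 were of unchanged genes. DESeq2 1.42.0, limma 3.58.1, other scalings and filters, a model of 2 conditions, a replicate block and leaving out each library served as alternatives. RPKM used exon lengths of GENCODE M21 (GRCm38), a later build than that of the counts.

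The subunit genes and gene lists were chosen with earlier results of these data known. All 6 subunit genes are named throughout. Other listed genes are named where they are among the 3 largest rises or falls that passed with at least 5 CPM in the higher condition, further family members with at least 1 CPM, and for correlations the 3 highest, of which some are not reported here. Of 9 neutrophil markers, 8 had a row in the table. No sequences of proteins were used.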

Additional observations from a re-analysis of the deposited data

How the results depend on the processing

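Against DMSO, DESeq2 called 2 subunit genes with MM-401 and 3 with iBET, and in the assembly list 3 with MM-401 and 10 with iBET. A model of only the 2 conditions compared gave 2 subunit genes with EPZ5676 and 2 with MI-2-2, 8 assembly genes with each, 2 supply genes with each, and 0 of each list with iBET, with 5 subunit genes for MM-401 against iBET. Scaling by library totals, and no filter, each gave 0 subunit genes with iBET. Leaving out 1 library gave 0 to 3 subunit genes with MM-401, 5 to 6 with EPZ5676, 4 to 6 with MI-2-2 and 0 to 2 with iBET. Between inhibitors it gave 2 to 5 for MM-401 against EPZ5676, 2 to 6 against MI-2-2, 0 to 4 against iBET, and for iBET 4 to 5 against EPZ5676. In the assembly list it gave 0 to 8 with MM-401, 14 to 31 with EPZ5676, 19 to 29 with MI-2-2 and 0 to 14 with iBET, and in the supply list 0 to 4, 6 to 17, 7 to 17 and 0 to 10. The number of all genes called also changed with the test, the model and the library left out. Shifts in these counts are therefore not read as results about the subunit genes or the lists. No called direction reversed. Signs turned only for differences that were not called, with ranges over the left-out libraries from -0.080 to 0.18 for Rac1 with MM-401 against DMSO, -0.18 to 0.064 for Ncf4 and -0.13 to 0.095 for Rac2 with iBET against DMSO (Rac2 at 0.013 without iBET replicate 2), and, for EPZ5676 against MI-2-2, -0.091 to 0.43 for Cybb, -0.077 to 0.41 for Cyba and -0.14 to 0.17 for Rac2 (-0.06 for Cybb and -0.03 for Rac2 without MI-2-2 replicate 1). The causes were not tested.

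Replicate numbers are shared between conditions, with nothing in the labels to pair the libraries. The differences of replicate 1 minus replicate 2 correlated between conditions by 0.278 to 0.666. With the replicate number as a block, 13 assembly genes were called with iBET in place of 6, Rac1 of MM-401 against iBET passed (adjusted p = 0.0489), and no other subunit call against DMSO changed. The block also raised the number of all genes called with iBET. The rise from 6 to 13 is therefore not read as a result about the assembly list. With 2 libraries per condition, changes of 2-fold were often missed in the simulation, where 40% of them were called. The simulation gave only 138 calls over 12768 genes. In the real comparison of EPZ5676 with DMSO, 18.7% of all tested genes were called higher and 19.4% lower. The adjusted threshold is stricter where fewer genes change, so the simulated share is not read as the recovery in the comparisons of EPZ5676 or MI-2-2 with DMSO.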
